A study of Mus musculus with 11 samples.

Results

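The genes described here are cytokine and growth factor receptors of developing T cells together with a kinase and 2 inhibitors of their signalling. The list holds 10 genes (Il7r, Il2ra, Il2rb, Il2rg, Il4ra, Kit, Flt3, Jak3, Socs1 and Socs3), and a probe set was taken for a gene when the platform annotation gave that gene's symbol and no other. This gave 9 probe sets for 8 genes, with 2 probe sets for Socs3, of the 28939 probe sets tested and the 19938 genes with a probe set of their own. Il2rg and Jak3 are not analysed here. The Jak3 probe set is annotated with Insl3 as well, and no probe set bore the symbol Il2rg alone.

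Thymus RNA of FVB mice was hybridised to 11 Affymetrix whole-transcript arrays, 1 per sample, and the labels call the samples of a group biological replicates. All mice carried EμSR-tTA, a tetracycline-controlled activator made in blood cells, and the reporter Rosa26LOXPEGFP. Normal thymocytes (n = 3) also carried Teto-Cre and were Dnmt3b+/+, with no MYC transgene. Wild-type thymic lymphomas, called wild-type tumors here (n = 3), carried Teto-MYC and Dnmt3bF/F, without Cre. Dnmt3b-deficient lymphomas, called Dnmt3b-deficient tumors (n = 3), carried Teto-MYC and Teto-Cre and are labelled Dnmt3b-/-. Cells from the thymus of mice of that last genotype, taken before tumors were seen, are called pre-tumor thymi (n = 2). Dnmt3b is an enzyme that adds methyl groups to DNA, and MYC is an oncogene that drives growth. The normal and pre-tumor mice were 24 days old, and tumors were collected once apparent, with no age given. Cells with EGFP were sorted from pre-tumor thymi, tumors were not sorted, and the labels leave unclear whether normal thymocytes were. Every comparison with normal thymocytes therefore joins the MYC transgene with genotype, stage or sorting, and these cannot be told apart. Between the lymphoma groups, Dnmt3b status and the Cre transgene cannot be told apart.

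Kit and Flt3 are receptor tyrosine kinases, whereas the interleukin receptors of the list have no enzyme of their own. When a ligand brings the chains together, JAK kinases bound to them phosphorylate STAT factors, which enter the nucleus and switch on target genes, among them the SOCS genes whose proteins shut the signal down. In the thymus, the interleukin-7 receptor keeps early progenitors and mature cells alive, Kit and Flt3 mark the earliest progenitors, Il2ra marks a short progenitor stage and regulatory T cells, and Socs1 is known to hold back cytokine responses in CD4+CD8+ thymocytes.

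Values are deposited log2 levels, with a floor of 3.32 below which nothing can be read, and no gene of the list lay at the floor on any array. Array medians lay between 4.55 and 4.62, and samples of 1 group correlated at 0.973 to 0.991 across the tested probe sets. The Dnmt3b probe set read between 5.07 and 5.70 on all arrays, with overlapping values in the lymphoma groups. The position of its probes relative to the deleted exons was not used here, so it does not check the labels. The mouse Myc probe set was lower in each MYC-transgenic group than in normal thymocytes, with log2 differences of −2.66, −3.28 and −2.03 in wild-type tumors, Dnmt3b-deficient tumors and pre-tumor thymi (adjusted p = 0.000728, 0.000266 and 0.00320), and whether it reads the transgene was not tested.

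Markers of other cells were summarised as the mean log2 level of a list in each sample. Thymocyte markers (11 of 12 measured) had means of 10.21 to 10.28 in normal thymocytes, 8.53 to 9.11 in pre-tumor thymi, 7.33 to 7.92 in wild-type tumors and 7.46 to 7.82 in Dnmt3b-deficient tumors. Cd3e, a chain of the T cell receptor complex, stayed between 8.70 and 10.58 on all arrays, while Dntt, the enzyme that adds bases to receptor gene joints in immature thymocytes, was at 9.62 to 9.82 in normal thymocytes and 3.40 to 4.76 in the lymphomas. Neutrophil markers varied within the tumors, with means of 6.68, 6.52 and 4.22 in wild-type tumors and 4.10, 6.13 and 4.40 in those lacking Dnmt3b, against 4.93 to 5.40 in normal and 4.02 to 4.07 in pre-tumor thymi. Macrophage markers gave 5.13, 5.54 and 4.39 in wild-type tumors, 4.29, 4.76 and 4.21 in those lacking Dnmt3b, 4.84 to 5.20 in normal and 4.06 to 4.19 in pre-tumor thymi. Means of the early double-negative progenitor list spanned 4.62 to 5.25 over all samples, those of the NK and innate-like list 4.34 to 5.21, those of the B cell list 3.85 to 5.0 and those of the stroma list 4.54 to 5.01. Dendritic cell means spanned 4.75 to 5.82, mast cell means 3.65 to 4.48 with Ms4a2 and Fcer1a at the floor on all arrays, and erythroid means, from 2 of 6 genes, 3.71 to 5.17. In RNA from mixed cells, fewer cells of a type and less RNA per cell cannot be told apart.

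**Figure D1:**
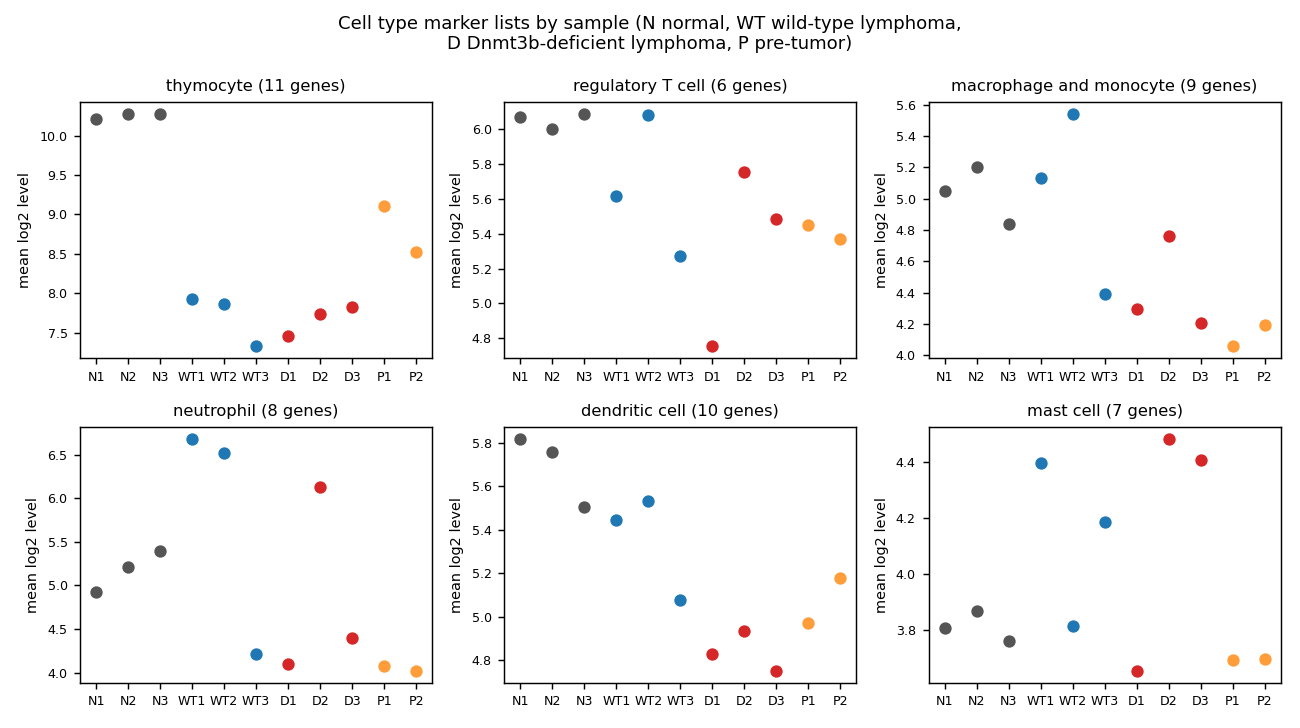
Mean log2 level of the thymocyte, regulatory T cell, macrophage, neutrophil, dendritic cell and mast cell lists in each of the 11 samples. There is 1 point per sample, and the 4 groups have their own colours. The thymocyte list is at 10.21 to 10.28 in normal thymocytes and no higher than 7.92 in any lymphoma.

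Against normal thymocytes, Socs1 fell in all 3 MYC-transgenic groups, Il4ra fell in Dnmt3b-deficient tumors and in pre-tumor thymi, and Kit fell in Dnmt3b-deficient tumors. Flt3 fell by 0.35 on the log2 scale in pre-tumor thymi, the smallest of these changes. No gene of the list rose in any comparison, and none passed the test between the lymphoma groups. The test was limma's moderated test, with p-values adjusted over all 28939 probe sets and a threshold of 0.05. In wild-type tumors 1 gene of 8 passed, where 19.9% of all probe sets did. In Dnmt3b-deficient tumors 3 of 8 passed, against 20.2% of all probe sets, and in pre-tumor thymi 3 of 8, against 19.6%. The median difference from normal over the 9 probe sets was −0.28, −0.42 and −0.35 in the same order, where the median over all probe sets was 0, 0 and −0.02. These 3 comparisons share the normal samples.

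**Figure D2:**
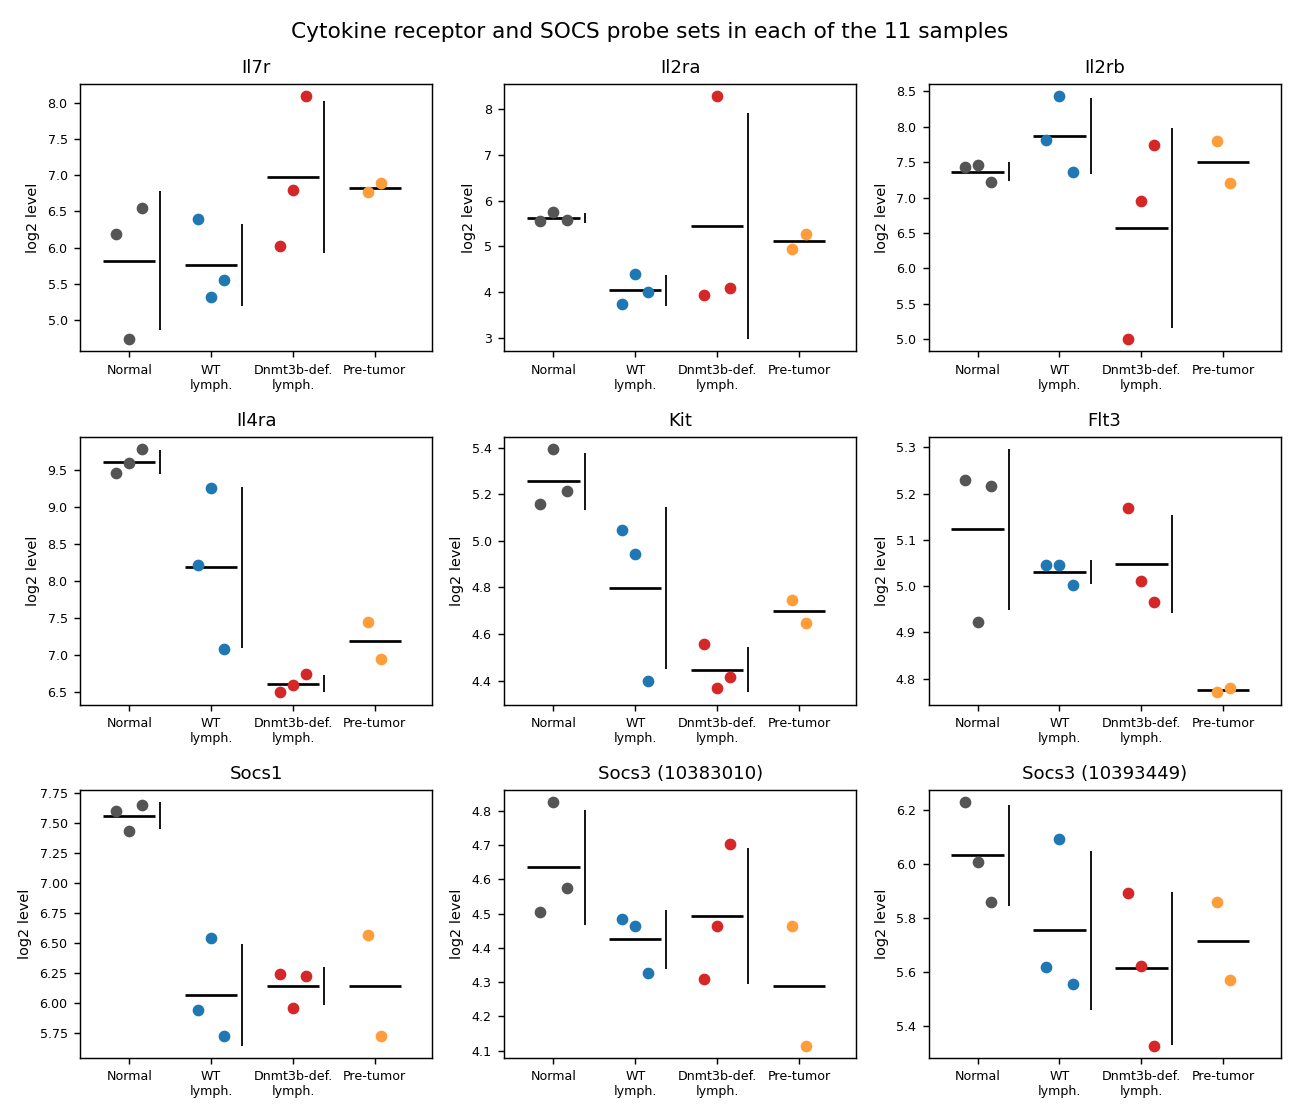
Log2 level of each of the 9 probe sets in every sample, with 1 point per sample a horizontal line at each group's mean and a vertical bar of ± 1 SD for groups of 3. Socs1 sits at 7.43 to 7.65 in normal thymocytes and at 6.56 or lower in all other samples, and Il2ra has 1 Dnmt3b-deficient lymphoma at 8.30.

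Among the receptors, Il4ra, the chain that binds interleukin-4 and also serves the interleukin-13 receptor, showed the largest change from normal among the calls. It read 9.45, 9.59 and 9.78 in the normal group, 8.22, 9.26 and 7.08 in wild-type tumors, 6.50, 6.60 and 6.74 in Dnmt3b-deficient tumors, and 7.44 and 6.94 in pre-tumor thymi. All normal samples were above all others, and all Dnmt3b-deficient tumors were below all others. Il4ra fell by 3.00 (SE 0.48, adjusted p = 0.00454) in Dnmt3b-deficient tumors, and this was the 143rd largest difference among all probe sets. It fell by 2.42 (SE 0.54, adjusted p = 0.0190) in pre-tumor thymi. That second call was lost without pre-tumor replicate 2 (−2.17, adjusted p = 0.142) and without normal replicate 2 (−2.43, adjusted p = 0.0532).

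In wild-type tumors the Il4ra difference from normal was −1.42 (SE 0.48, adjusted p = 0.0808), which did not pass. Without wild-type replicate 2, the highest of its group, it was −1.96 with adjusted p = 0.0137. The wild-type tumors spanned 2.18 log2 units for this gene, and 99.2% of probe sets had a smaller SD in that group, whereas the Dnmt3b-deficient tumors spanned 0.24, with 46.4% of probe sets having a smaller SD. The order of the wild-type tumors for Il4ra (replicate 2, then 1, then 3) was also their order for the macrophage, dendritic cell and regulatory T cell lists. The early double-negative progenitor list had that order as well, and so did Il2rb, Socs1 and the Socs3 probe set 10393449. In the normal group and in Dnmt3b-deficient tumors, replicate 3 was highest for Il4ra and lowest for the macrophage and dendritic cell lists. Pre-tumor thymi had the reverse order for those lists and the same order for the regulatory T cell list. The dendritic cell means were 5.50 to 5.82 in normal, 5.07 to 5.53 in wild-type, 4.97 to 5.18 in pre-tumor and 4.75 to 4.93 in Dnmt3b-deficient samples. Of the 10 dendritic cell genes, 4 fell in each of the last 2 groups, where 9.88% and 10.5% of all probe sets fell. Macrophage means of normal thymocytes lay within the wild-type range. The part of these cells in the Il4ra levels was not tested.

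Il4ra was also the 1 gene of the list whose lymphoma groups did not overlap. The difference, Dnmt3b-deficient minus wild-type, was −1.58 (SE 0.48, 95% interval −2.70 to −0.45), with unadjusted p = 0.0123 and adjusted p = 0.655 in limma. The difference did not pass the adjusted threshold, and 7.98% of all probe sets had lymphoma groups that did not overlap. In order of level, normal thymocytes came before wild-type tumors, pre-tumor thymi and Dnmt3b-deficient tumors, and no neighbours in that order passed the test.

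Since Dnmt3b acts on cytosines that precede guanines (CpG), the 250 bases before the start of Il4ra and Il2ra are shown, credited to RefSeq on GRCm38.p6, 5′ to 3′ on the gene's strand, with every CpG in capitals. A window was found for 9 of the 10 listed genes, and methylation was not measured here. Il4ra, at chr7:125552021-125552270 on the + strand, has 17 CpG, more than 76.5% of all windows. Il2ra, at chr2:11642542-11642791 on the + strand, has 3, more than 29.0% of windows. The median over 32851 windows is 6.
Il4ra: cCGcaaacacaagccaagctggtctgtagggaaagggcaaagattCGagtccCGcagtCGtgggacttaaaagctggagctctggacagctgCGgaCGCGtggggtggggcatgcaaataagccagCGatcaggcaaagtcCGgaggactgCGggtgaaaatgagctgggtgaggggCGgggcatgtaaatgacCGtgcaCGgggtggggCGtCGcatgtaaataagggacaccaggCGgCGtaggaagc
Il2ra: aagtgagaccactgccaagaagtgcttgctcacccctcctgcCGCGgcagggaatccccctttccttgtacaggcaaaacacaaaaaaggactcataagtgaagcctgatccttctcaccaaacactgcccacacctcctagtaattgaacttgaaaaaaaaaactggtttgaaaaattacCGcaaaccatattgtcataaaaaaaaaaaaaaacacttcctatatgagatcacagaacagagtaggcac
Among the other genes of the list with a measured level, Socs3 had 26 CpG, Kit 17 or 18 in its 2 windows, Flt3 and Socs1 13 each, and Il7r 1. Neither Il4ra nor Il2ra held any of the motifs searched on both strands: a STAT motif (TTCNNNGAA, in 7.02% of windows), a STAT6 motif (TTC and GAA with 4 bases between, in 5.85%), an interferon regulatory factor motif (GAAA, any 2 bases and GAAA again, in 2.98%) and the E-box bound by MYC (CACGTG, in 6.02%).

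Il2ra, the high-affinity chain of the interleukin-2 receptor known as CD25, differed in 1 tumor. Its levels were 5.55, 5.76 and 5.57 in the normal group, 3.73, 4.39 and 3.99 in wild-type tumors, 3.94, 8.30 and 4.08 in Dnmt3b-deficient tumors, and 4.94 and 5.28 in pre-tumor thymi. Replicate 2 of the Dnmt3b-deficient tumors was the highest sample of all, and the other 5 lymphomas were below every normal and pre-tumor sample. The group's SD of 2.48 exceeded that of 99.8% of probe sets. With this tumor in the fit, the difference from normal was −1.59 (SE 1.06, adjusted p = 0.387) in wild-type and −0.19 (SE 1.06, adjusted p = 1) in Dnmt3b-deficient tumors. Without it, the difference from normal was −1.59 in wild-type (adjusted p = 0.00292) and −1.62 in Dnmt3b-deficient tumors (adjusted p = 0.00495), and the difference between lymphoma groups went from 1.40 to −0.03. This tumor was singled out by its own Il2ra level, so these limma p-values follow a choice made on the values tested.

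That tumor's means were 5.76 for the regulatory T cell list, 5.25 for the progenitor list, 6.13 for the neutrophil list, 4.99 for the NK list, 4.76 for the macrophage list, 4.93 for the dendritic cell list, 4.48 for the mast cell list and 4.01 for the erythroid list, each the highest of the 3 Dnmt3b-deficient tumors. It was the lowest of the 3 for the B cell list (4.16) and the stroma list (4.79), and lay between the others for the thymocyte and mature T cell lists. Foxp3, which defines regulatory T cells, read 4.53 there, against 4.30 and 4.21 in the other tumors of the group and 4.96 to 5.15 in normal thymocytes. The regulatory T cell list had means of 6.00 to 6.09 in the normal group, 5.27 to 6.08 in wild-type tumors, 4.75 to 5.76 in Dnmt3b-deficient tumors and 5.37 to 5.45 in pre-tumor thymi. Of its 6 genes, 4 fell in each MYC-transgenic group, where 10.3%, 10.5% and 9.88% of all probe sets fell in the same order. The part of these cells in the Il2ra levels was not tested.

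Il2rb, the signalling chain shared by the interleukin-2 and interleukin-15 receptors, read 7.43, 7.46 and 7.22 in the normal group, 7.82, 8.44 and 7.36 in wild-type tumors, 5.0, 6.96 and 7.75 in Dnmt3b-deficient tumors, and 7.80 and 7.21 in pre-tumor thymi. All groups overlapped, with replicate 1 of the Dnmt3b-deficient tumors the lowest sample. The lymphoma groups differed by −1.30 (95% interval −2.83 to 0.22, adjusted p = 0.840).

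Il7r, the chain that binds interleukin-7, read 6.19, 4.73 and 6.54 in the normal group, 6.39, 5.32 and 5.56 in wild-type tumors, 6.02, 6.80 and 8.10 in Dnmt3b-deficient tumors, and 6.77 and 6.89 in pre-tumor thymi. Both pre-tumor samples were above all normal samples, while the lymphomas overlapped with them. The difference between the lymphoma groups was 1.22 (95% interval −0.30 to 2.73, adjusted p = 0.847), and pre-tumor thymi differed from normal by 1.01 (SE 0.72, adjusted p = 0.423). Il7r varied already among normal thymocytes, where its SD of 0.96 exceeded that of 99.8% of probe sets.

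In Dnmt3b-deficient tumors, the samples had the same order for Il7r, Il2rb, the thymocyte list (7.46, 7.74 and 7.82) and the mature T cell list. Means of the mature T cell list were 6.10, 6.98 and 7.53 there. In normal thymocytes that list stayed between 7.25 and 7.27 while Il7r ranged from 4.73 to 6.54, in wild-type tumors it was 7.14, 7.07 and 6.10, and in pre-tumor thymi 7.50 and 7.32. The part of mature T cells or of thymocytes in these levels was not tested. The RefSeq window of Il7r held 1 STAT motif, 142 bases before the start.

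Kit, the receptor tyrosine kinase for stem cell factor, read 5.16, 5.39 and 5.21 in the normal group, 5.05, 4.94 and 4.40 in wild-type tumors, 4.56, 4.37 and 4.42 in Dnmt3b-deficient tumors, and 4.75 and 4.65 in pre-tumor thymi. Normal samples were above all others, and only wild-type replicate 3 lay within the range of the Dnmt3b-deficient tumors. Kit fell by 0.81 (SE 0.16, adjusted p = 0.0114) in Dnmt3b-deficient tumors, which is 1.75-fold. Its levels in those tumors lay near or below the array medians of 4.55 to 4.62. The differences of −0.46 in wild-type tumors (SE 0.16, adjusted p = 0.0933) and −0.56 in pre-tumor thymi (SE 0.18, adjusted p = 0.0729) did not pass. Without wild-type replicate 3 the pre-tumor difference had adjusted p = 0.0102.

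Mast cells also make Kit. Their list had means of 3.81, 3.87 and 3.76 in the normal group, 4.40, 3.81 and 4.18 in wild-type tumors, 3.65, 4.48 and 4.41 in those lacking Dnmt3b, and 3.69 in both pre-tumor samples. Wild-type replicate 1 was the highest of its group for both Kit and the mast cell list, whereas Dnmt3b-deficient replicate 1 was the highest of its group for Kit and the lowest for the list. The part of mast cells in the Kit levels was not tested.

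Flt3, the receptor tyrosine kinase of early lymphoid progenitors, varied least. It read 5.23, 4.92 and 5.22 in the normal group, 5.05, 5.05 and 5.0 in wild-type tumors, 5.17, 5.01 and 4.97 in Dnmt3b-deficient tumors, and 4.77 and 4.78 in pre-tumor thymi. Both pre-tumor samples were below all others. The fall of 0.35 (SE 0.10, adjusted p = 0.0436) lay just inside the threshold and was kept in 5 of 21 alternative settings. It was lost when any 1 of 9 samples was left out, with adjusted p up to 0.194 without pre-tumor replicate 2.

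Socs1, an inhibitor that binds JAK kinases, was lower in every MYC-transgenic sample than in any normal one. It read 7.59, 7.43 and 7.65 in the normal group, 5.94, 6.54 and 5.72 in wild-type tumors, 6.24, 5.96 and 6.23 in Dnmt3b-deficient tumors, and 6.56 and 5.72 in pre-tumor thymi. The 3 MYC-transgenic groups overlapped with each other, and none overlapped with the normal group. Socs1 fell by 1.49 (SE 0.27, adjusted p = 0.00768) in wild-type tumors, fell by 1.42 (SE 0.27, adjusted p = 0.00857) in Dnmt3b-deficient tumors and fell by 1.42 (SE 0.30, adjusted p = 0.0158) in pre-tumor thymi. These are falls of 2.81-fold, 2.67-fold and 2.67-fold. Without pre-tumor replicate 2, the lower of its pair, the pre-tumor difference was −1.0 (adjusted p = 0.117).

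Thymocyte markers also fell from normal: 9, 8 and 4 of the 11 measured did in wild-type tumors, Dnmt3b-deficient tumors and pre-tumor thymi, and none rose. Of all probe sets, 10.3%, 10.5% and 9.88% fell in the same comparisons. The marker means were higher in pre-tumor thymi (8.53 to 9.11) than in the lymphomas (7.33 to 7.92), whereas Socs1 overlapped between these groups. The part of thymocyte content in the Socs1 difference was not tested. Between lymphoma groups Socs1 differed by 0.07, with a 95% interval of −0.55 to 0.69, and between Dnmt3b-deficient tumors and pre-tumor thymi the interval was −0.69 to 0.69.

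The window before the Socs1 start is shown because Socs1 moved in every MYC-transgenic group and because it held a motif of the list above. It lies at chr16:10785537-10785786 on the − strand (GRCm38.p6, RefSeq) and is written 5′ to 3′ on the gene's strand. Capitals mark a pair of overlapping interferon regulatory factor motifs, which start 83 and 77 bases before the start.
Socs1: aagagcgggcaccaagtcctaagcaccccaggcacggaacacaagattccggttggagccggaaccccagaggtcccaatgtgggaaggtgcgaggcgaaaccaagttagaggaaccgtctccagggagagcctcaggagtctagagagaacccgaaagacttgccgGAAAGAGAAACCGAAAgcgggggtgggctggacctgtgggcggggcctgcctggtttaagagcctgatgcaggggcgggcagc
It held no STAT motif and no E-box.

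Socs3, an inhibitor that acts on the interleukin-6 receptor family, was measured by 2 probe sets, and neither passed the test in any comparison. The first (10383010) read 4.50, 4.82 and 4.58 in the normal group, 4.48, 4.46 and 4.33 in wild-type tumors, 4.31, 4.46 and 4.70 in Dnmt3b-deficient tumors, and 4.46 and 4.12 in pre-tumor thymi. The second (10393449) read 6.23, 6.01 and 5.86 in the normal group, 5.62, 6.09 and 5.56 in wild-type tumors, 5.89, 5.62 and 5.33 in Dnmt3b-deficient tumors, and 5.86 and 5.57 in pre-tumor thymi. Differences from normal lay between −0.14 and −0.42 over both, with adjusted p of 0.176 or higher. The first did not overlap with normal in wild-type tumors and pre-tumor thymi, and the second overlapped in all groups. The RefSeq window of Socs3 held 1 STAT motif, 154 bases before the start.

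Counted over the list, 5 of 9 probe sets lay below normal without overlap in wild-type tumors, where 18.9% of all probe sets did. In Dnmt3b-deficient tumors 3 of 9 did, against 17.2%, and in pre-tumor thymi 6 of 9, against 27.3%. Il7r alone lay above normal without overlap, in pre-tumor thymi, where 17.4% of all probe sets did.

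**Figure D3:**
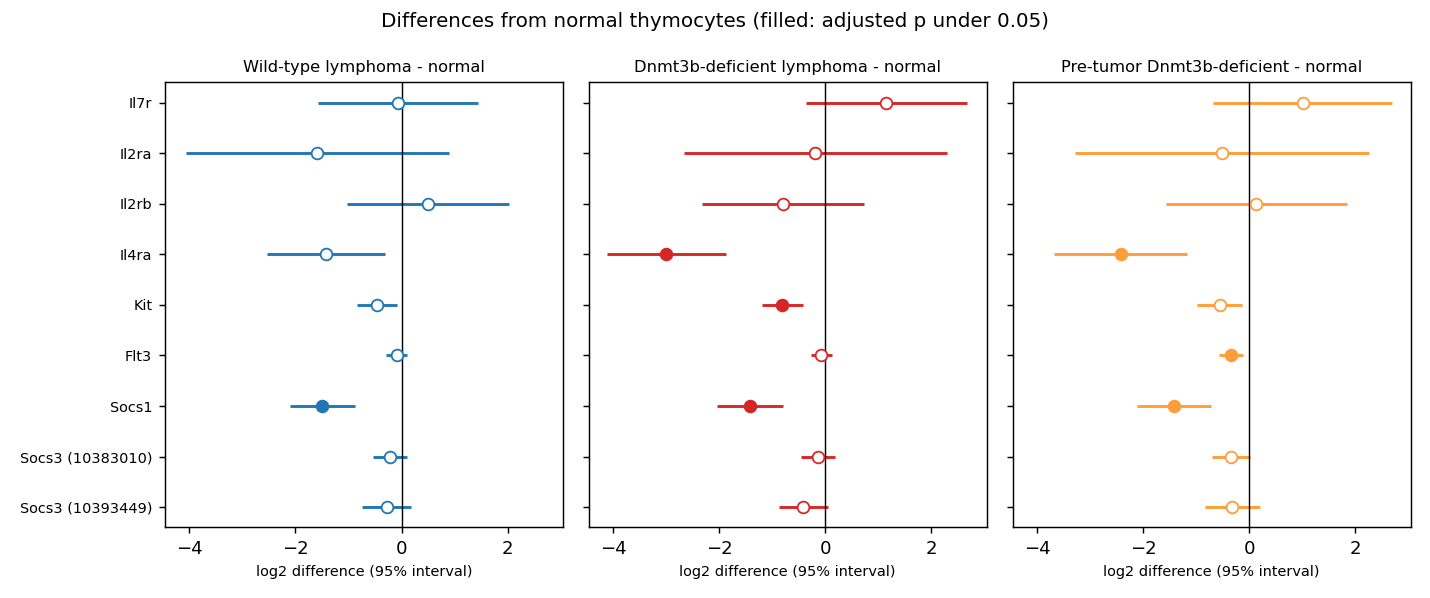
Log2 difference of each probe set from normal thymocytes, in 1 panel for each of the other 3 groups, with 95% intervals from limma as horizontal bars; filled points have an adjusted p under 0.05. Socs1 is filled in all 3 panels, Il4ra in 2, and no filled point lies to the right of 0.

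Between Dnmt3b-deficient and wild-type tumors, where 0.00691% of all probe sets passed the test, 0 of 8 genes did, and 1, Il4ra, had an unadjusted p under 0.05, where 6.3% of all probe sets did. The intervals do not show that the groups are alike: that of Il2ra ran from −1.07 to 3.88. Socs1, Flt3 and Kit had narrower intervals, and that of Flt3 ran from −0.19 to 0.22. Lymphomas and pre-tumor thymi gave no calls either. In Dnmt3b-deficient tumors, where 0.0691% of all probe sets passed against pre-tumor thymi, the lowest adjusted p of a listed gene was 0.434, for Flt3, which was 0.27 higher without overlap. Il4ra and Kit were lower there without overlap, with differences of −0.58 and −0.25 (adjusted p = 0.865 and 0.782), and 20.9% of all probe sets did not overlap. In wild-type tumors, where 0.107% passed, Il7r and Il2ra each had a difference of −1.07 from pre-tumor thymi and Flt3 was 0.26 higher, all without overlap and with adjusted p of 0.561 or higher, and 19.5% of all probe sets did not overlap. In both comparisons 1 gene, Flt3, had an unadjusted p under 0.05 in limma, where 9.43% and 7.77% of all probe sets did.

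Of 12 genes for ligands of these and related receptors, Il7, Il2, Il15, Il21, Tslp and Il6 lay at the floor on all 11 arrays. Flt3l, the ligand of Flt3, fell by 1.07 (SE 0.22, adjusted p = 0.0123) in Dnmt3b-deficient tumors, the 1 call of the list, which was lost with only the 2 groups compared in the fit (adjusted p = 0.0667). Its differences were −0.65 in wild-type tumors (adjusted p = 0.0793) and −0.61 in pre-tumor thymi (adjusted p = 0.136).

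Among other cytokine receptor chains, 23 of 25 were measured. In wild-type tumors 1 rose and 6 fell, where 9.58% of all probe sets rose and 10.3% fell. In Dnmt3b-deficient tumors 1 rose and 8 fell, where 9.7% and 10.5% of all did, and in pre-tumor thymi 2 rose and 6 fell, where 9.69% and 9.88% did. Il9r, the interleukin-9 receptor chain, read 5.36, 5.27 and 5.14 in the normal group, 8.44, 8.17 and 8.03 in wild-type tumors, 8.28, 8.55 and 8.84 in Dnmt3b-deficient tumors, and 8.72 and 8.75 in pre-tumor thymi. Every MYC-transgenic sample was above every normal sample. Values for the 3 groups are given from here on in the order wild-type tumors, Dnmt3b-deficient tumors and pre-tumor thymi. Il9r rose 7.76-fold, 9.85-fold and 11.2-fold in that order (adjusted p = 0.000227, 9.95e-05 and 0.000426), and these calls held in all 21 alternative settings.

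Both chains of the interferon gamma receptor fell in all 3 groups. Ifngr1 fell in each group, with log2 differences of −2.84, −2.14 and −2.04 (adjusted p = 0.000252, 0.000418 and 0.00142). Ifngr2 fell in each group, with differences of −1.64, −1.55 and −0.94 (adjusted p = 0.000281, 0.000202 and 0.00276). Il17ra, the interleukin-17 receptor, fell in each group, with differences of −1.72, −1.52 and −1.31 (adjusted p = 0.000971, 0.00119 and 0.00480). Tgfbr2, a receptor for the growth inhibitor TGF-beta, fell by 1.17 in pre-tumor thymi (adjusted p = 0.0254), a call lost without any 1 of the normal samples (adjusted p up to 0.0768) and without pre-tumor replicate 2 (−0.83, adjusted p = 0.198). Il21r, the interleukin-21 receptor, fell by 2.03 in Dnmt3b-deficient tumors (adjusted p = 0.0373), a call lost when any 1 normal sample, Dnmt3b-deficient tumor or pre-tumor sample or wild-type replicate 1 was left out (adjusted p of 0.0538 to 0.107).

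Of the other JAK kinases and STAT factors, 9 of 10 were measured. In wild-type tumors 1 rose and 2 fell, and in Dnmt3b-deficient tumors and in pre-tumor thymi 3 fell and none rose. Of all probe sets, 19.9%, 20.2% and 19.6% passed in either direction in the same comparisons. Stat2, which carries interferon signals, fell in each group, with differences of −1.13, −1.23 and −1.05 in wild-type tumors, Dnmt3b-deficient tumors and pre-tumor thymi (adjusted p = 0.00131, 0.000875 and 0.00360). Stat6, which carries the signal of the interleukin-4 receptor, fell in each group, with differences of −0.54, −0.67 and −0.60 (adjusted p = 0.0152, 0.00554 and 0.0164). The wild-type Stat6 call was lost without normal replicate 2 (adjusted p = 0.0512) and the pre-tumor call without pre-tumor replicate 2 (−0.48, adjusted p = 0.136). Stat5b, a main factor of interleukin-2 and interleukin-7 signalling, fell by 1.59 in pre-tumor thymi (adjusted p = 0.0119), but not without pre-tumor replicate 2 (−1.31, adjusted p = 0.104). It fell by 1.02 in Dnmt3b-deficient tumors (adjusted p = 0.0368), a call kept in 14 of 21 alternatives and lost without any 1 normal sample (adjusted p up to 0.0994) or without wild-type replicate 1 or 2 (0.0529 and 0.0600). Jak1, the kinase that pairs with Jak3, rose by 0.86 in wild-type tumors (adjusted p = 0.0310). That call was lost without normal replicate 1 or 2 or wild-type replicate 1 or 2, with adjusted p of 0.0791 to 0.0994. Without normal replicate 2 the count in wild-type tumors was 1, and in pre-tumor thymi it was 1 without pre-tumor replicate 2 and 5 without Dnmt3b-deficient tumor replicate 1.

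All 18 other SOCS proteins and brakes of JAK-STAT signalling were measured. In wild-type tumors 2 rose and 4 fell, in Dnmt3b-deficient tumors 2 rose and 5 fell, and in pre-tumor thymi 3 rose and 3 fell, where 19.9%, 20.2% and 19.6% of all probe sets passed in either direction. Ptpn2, a phosphatase that removes phosphate from JAK kinases and STAT factors, rose by 1.94, 1.69 and 1.71 (adjusted p = 0.00109, 0.00144 and 0.00349). Ptpn2 has 2 probe sets, and only the one with the higher mean level is given here. Pias2, named as an inhibitor of activated STAT, rose by 0.95, 0.79 and 0.96 (adjusted p = 0.00814, 0.0156 and 0.0134). Cish, a SOCS family member induced by Stat5, fell by 0.84 in Dnmt3b-deficient tumors (adjusted p = 0.0108). Pias4 fell by 0.76 in wild-type tumors (adjusted p = 0.00318), and Socs4 rose by 1.39 in pre-tumor thymi (adjusted p = 0.0288). Cbl, a ubiquitin ligase that removes activated receptors, fell in each group, with differences of −0.92, −0.96 and −1.16 (adjusted p = 0.0204, 0.0167 and 0.0144). Single samples weighed on these counts: without normal replicate 2 they came to 3 genes in each lymphoma group, and without pre-tumor replicate 2 to 1 gene in pre-tumor thymi. Socs4 (1.05, adjusted p = 0.218), Cbl (−0.94, 0.123) and Pias2 (0.78, 0.116) lost their pre-tumor calls without pre-tumor replicate 2. The Dnmt3b-deficient Pias2 call was lost without normal replicate 2 (adjusted p = 0.0529) or tumor replicate 2 (0.0574), and Socs4 also without normal replicate 1 or 2 (0.0674 and 0.0756). Cbl in wild-type tumors was lost without normal replicate 2 or 3 or wild-type replicate 1 or 2 (0.0591 to 0.0732), and in Dnmt3b-deficient tumors without normal replicate 2 or 3 or tumor replicate 1 (0.0502 to 0.0543).

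Genes of cell survival, death and growth known to respond to these cytokines gave falls and no rise. The list mixes genes that favour survival or growth with genes that oppose them, such as Bcl2l11 and Cdkn1b. Its counts and median therefore do not give the direction of a cytokine response. Of 15 measured, 9 fell in wild-type tumors (against 10.3% of all probe sets), 7 in Dnmt3b-deficient tumors (against 10.5%) and 7 in pre-tumor thymi (against 9.88%). The list's median difference was −0.97, −0.84 and −0.76, and that of all probe sets 0, 0 and −0.02. Bcl2l1, whose product keeps CD4+CD8+ thymocytes alive, read 9.12, 9.22 and 9.03 in the normal group, 5.17, 5.16 and 5.32 in wild-type tumors, 5.27, 5.31 and 5.23 in Dnmt3b-deficient tumors, and 6.80 and 5.89 in pre-tumor thymi. The normal samples stood far above all others, and the pre-tumor samples lay between them and the lymphomas. Bcl2l1 fell 15.0-fold, 14.4-fold and 6.86-fold (adjusted p = 0.000216, 0.000112 and 0.00111). Ccnd3, a cyclin needed for the expansion of early thymocytes, fell in each group, with differences of −3.36, −3.95 and −2.94 (adjusted p = 0.000902, 0.000427 and 0.00288). Cdkn1b, an inhibitor of cyclin-dependent kinases, fell in each group, with differences of −1.75, −2.27 and −1.41 (adjusted p = 0.000584, 0.000174 and 0.00227). These values are from the one of its 2 probe sets with the higher mean level.

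Bcl2, an inhibitor of cell death kept up by interleukin-7, fell by 1.46 in Dnmt3b-deficient tumors (adjusted p = 0.000673). Bcl2l11, a promoter of cell death, fell by 1.80 in wild-type tumors (adjusted p = 0.00654). Bcl2 and Bcl2l11 are each named for the group where they were among the 4 largest called differences of the list. Their differences in the other groups are not given here, and no gene of the list passed between the lymphoma groups. Myb, a transcription factor of immature thymocytes, fell by 1.41 in pre-tumor thymi (adjusted p = 0.00941), though not without pre-tumor replicate 2 (−1.16, adjusted p = 0.0841). Without that sample, 4 genes of the list passed in pre-tumor thymi.

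**Figure D4:**
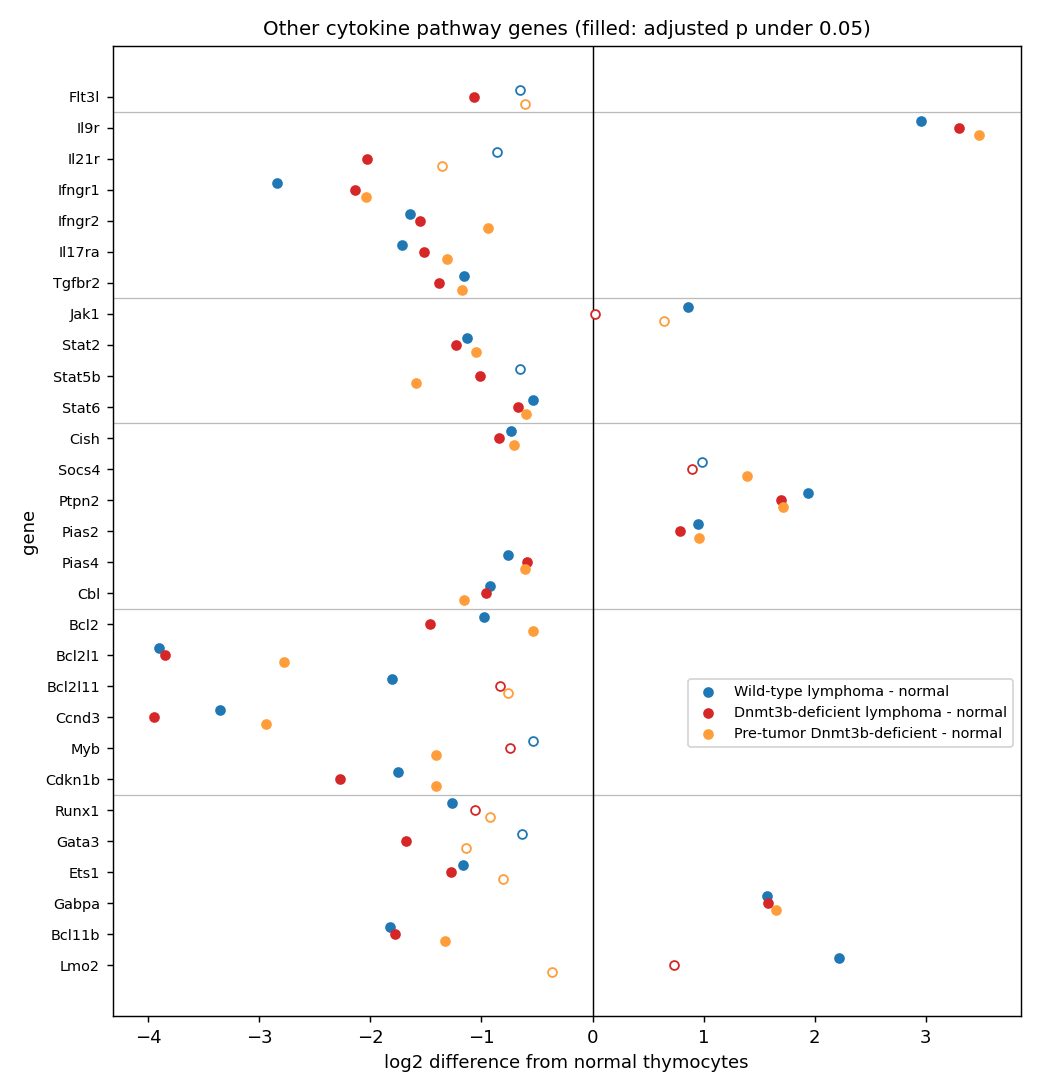
Log2 difference from normal thymocytes for other genes of cytokine signalling, in the 3 MYC-transgenic groups, with grey lines between gene lists; filled points have an adjusted p under 0.05. Il9r lies near 3 to the right and Bcl2l1 and Ccnd3 at −2.78 to −3.95 to the left.

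Of the transcription factors that act on these receptor genes in T cell development, 14 of 15 were measured. In wild-type tumors 2 rose and 3 fell, in Dnmt3b-deficient tumors 1 rose and 3 fell, and in pre-tumor thymi 1 rose and 1 fell, where 19.9%, 20.2% and 19.6% of all probe sets passed. Il7r did not pass the test, but its 95% intervals were wide (−1.58 to 1.45, −0.36 to 2.66 and −0.68 to 2.70) and do not show that it was unchanged. Gabpa, known to act on the Il7r gene, rose by 1.57, 1.58 and 1.66 (adjusted p = 0.00462, 0.00406 and 0.00718). Bcl11b, which commits progenitors to the T lineage, fell in each group, with differences of −1.82, −1.78 and −1.33 (adjusted p = 0.00151, 0.00139 and 0.00897). Neither passed in pre-tumor thymi without pre-tumor replicate 2 (adjusted p = 0.0659 and 0.0747). Gata3, a regulator of CD4+ T cells, fell by 1.68 (adjusted p = 0.0127) and Ets1, a factor of lymphoid cells, fell by 1.27 (adjusted p = 0.00627) in Dnmt3b-deficient tumors. In wild-type tumors Runx1, a regulator of T cell genes, fell by 1.26 (adjusted p = 0.0268), a call lost without any 1 sample of the normal group or wild-type replicate 1 or 2 (adjusted p of 0.0658 to 0.0924). Lmo2, a factor of progenitors, rose by 2.22 there (adjusted p = 0.0491), a call lost when any 1 sample was left out except wild-type replicate 3 and Dnmt3b-deficient tumor replicate 1 (adjusted p of 0.0632 to 0.153). The count in wild-type tumors was 3 without normal replicate 2 and 8 without wild-type replicate 3, and in pre-tumor thymi it was 0 without pre-tumor replicate 2 and 4 without wild-type replicate 3. No gene of these 6 lists passed the test between the lymphoma groups or between lymphomas and pre-tumor thymi, and leaving out 1 sample gave at most 2 calls in any of them.

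The genes whose levels were most alike those of a listed gene were read off by Pearson's r over the 11 samples, which is a description over samples that share groups. For Il4ra they were Dusp6 (0.973), Pik3r5 (0.968) and Nfkb2 (0.963). For Socs1 they were Sbk1 (0.977), Prex1 (0.976) and Lmbr1l (0.973), and for Kit Ndrg3 (0.974), Rasl11b (0.968) and Abhd15 (0.967). Il2rb was most like Ikbke (0.935), Il2ra most like Fam107a (0.933), Flt3 most like Btc (0.916) and Il7r most like Fam81a (0.899). The Socs3 probe sets were most like Dhrs7c (0.942) and Rab32 (0.925).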

How the data were processed

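Levels were read from a table of 35512 probe sets and 11 arrays (from 300 ng of RNA, per the labels). The authors deposited log2 values, made with Partek and RMA according to the submitters' processing notes. Versions and genome build are not given in the sources used here. No value lies below 3.32, which 23.6% to 25.7% of values per array equal. Gene symbols came from the platform's annotation. The 6573 with ID numbers below the first annotated one were left out as probable controls, which left 28939: 21789 with 1 symbol, 1621 with several and 5529 with none. Symbols were matched to a RefSeq gene table, and 0 changed.

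Groups came from the sample titles. With limma 3.58.1 in R 4.3.3, 1 mean per group was fitted to all 11 arrays (lmFit and eBayes without a trend, 7 residual and 0.460 prior degrees of freedom), with no replicate block and no new normalization. There were 6 comparisons, each two-sided with Benjamini-Hochberg adjustment over all probe sets and a threshold of 0.05. The number of arrays limits the precision. Differences and intervals are on the log2 scale, and folds are 2 to that power. The steps were tested on simulated data. Deviations from the group mean of samples with the same replicate number had r of −0.33 to 0.32 over 15 pairs, 3 of them above 0.1. Dnmt3b-deficient tumors and pre-tumor thymi gave 0.12 and 0.32 for replicates 1 and 2. The labels do not say that the numbers pair samples, so they were not taken as pairs. Alternatives covered normalization, moderation, filters, samples and thresholds, 21 per result, and those for the other pathway genes were added after seeing the data. Motifs were searched with Python 3.11.15 in RefSeq windows.

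The genes of the list, the other gene lists and the markers were chosen with earlier results of these data known. All genes of the list were named, and of each other list up to 4 genes per comparison, those past the threshold with the largest differences. A gene named for 1 group can therefore have passed in another too. Where a gene of those lists or a marker had more than 1 probe set, the one with the highest mean level was used. The genes most alike were the 3 with the highest r among named genes above the floor on most arrays; for some, 1 is given.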

Additional observations from a re-analysis of the deposited data

How the results depend on the processing

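The falls of Socs1 in both lymphoma groups and of Il4ra in Dnmt3b-deficient lymphomas passed the threshold in all 21 alternatives, and that of Kit in 20, all but the one asking for a fold change of at least 2. The pre-tumor group has 2 samples. From 3 genes its calls went to 1 with only the 2 groups compared in the fit, where Socs1 had adjusted p = 0.0853, and to 0 with the replicate block, where Il4ra had adjusted p = 0.0535 and Socs1 0.0548. Leaving out 1 sample gave 0 to 3. Calls in wild-type lymphomas went from 1 gene to 2 without probe sets at the floor on all arrays (Il4ra, adjusted p = 0.0402), to 3 without the probe sets dimmer than the median (Il4ra, 0.0172, and Kit, 0.0425), to 2 with only the 2 groups compared (Il2ra, 0.0115), and to 1 to 2 leaving out 1 sample. Leaving out 1 sample gave 3 to 4 calls in Dnmt3b-deficient lymphomas, from 3. Kit passed in pre-tumor thymocytes without probe sets at the floor (0.0439) and without those dimmer than the median (0.0320). Flt3 lost its call when normalized again by quantiles (0.0781), when median centred (0.0990) and with the replicate block (0.0790).

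Over all probe sets, Dnmt3b-deficient against wild-type lymphomas gave 2 calls, 1 each after quantile normalization, with a variance trend, with the replicate block and at a fold change of at least 2, 6 when median centred (1 higher and 5 lower), 7 without probe sets at the floor, 13 without those dimmer than the median, and 1 to 88 leaving out 1 sample. Against normal, wild-type lymphomas gave 5755 calls, 2408 at a fold change of at least 2 and 3664 to 5707 leaving out 1 sample. Dnmt3b-deficient lymphomas gave 5860, 2532 and 4270 to 5784. Pre-tumor thymocytes gave 5662, 2486 and 1712 to 5636, with 2250 from only the 2 groups and 3269 with the replicate block. Dnmt3b-deficient lymphomas against pre-tumor thymocytes gave 20 calls, 9 after quantile normalization (0 higher and 9 lower, from 9 and 11), 29 when median centred (8 and 21), 2 without those dimmer than the median, 2 with only the 2 groups, 4 with the replicate block, 8 at a fold change of at least 2 and 8 to 118 leaving out 1 sample. Wild-type lymphomas against pre-tumor thymocytes gave 31, then 48 when median centred, 51 without probe sets at the floor, 71 without those dimmer than the median, 19 with only the 2 groups, 7 with the replicate block, 20 at a fold change of at least 2 and 15 to 148 leaving out 1 sample. The cause was not tested.

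No difference that changed sign passed the test as reported or in a setting where its sign was turned. Median centring gave −0.0107 for Flt3 between the lymphoma groups and −0.0551 for Socs1 between Dnmt3b-deficient lymphomas and pre-tumor thymocytes, and the replicate block gave 0.00722 for the second Socs3 probe set and −0.13 for Il7r in the latter comparison. Leaving out 1 sample, the difference between the lymphoma groups ranged from −0.0383 to 0.16 and −0.28 to 0.0271 for the Socs3 probe sets, −0.10 to 0.31 for Socs1, −0.0267 to 2.15 for Il2ra and −0.0429 to 0.0582 for Flt3. Against normal it ranged from −0.61 to 0.30 for Il7r in wild-type lymphomas, −1.62 to 0.56 for Il2ra in Dnmt3b-deficient lymphomas and −0.16 to 0.43 for Il2rb in pre-tumor thymocytes. Dnmt3b-deficient lymphomas against pre-tumor thymocytes gave −0.25 to 0.0411 for the second Socs3 probe set, −0.42 to 0.62 for Il7r, −0.42 to 0.42 for Socs1 and −1.10 to 1.08 for Il2ra. Wild-type lymphomas against pre-tumor thymocytes gave −0.0398 to 0.31 and −0.13 to 0.18 for the Socs3 probe sets, −0.49 to 0.35 for Socs1 and −0.0273 to 0.30 for Kit.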
